A study of Mus musculus with 8 samples.

Results

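The 10 genes described here encode enzymes that make, activate and store polyunsaturated fatty acids, and they were chosen by symbol from the deposited gene table: the desaturases Fads1 and Fads2, the elongases Elovl1, Elovl2 and Elovl5, the long-chain acyl-CoA synthetases Acsl1, Acsl3, Acsl4 and Acsl5, and the acyltransferase Lpcat3. All 10 were found, each on 1 row, among 19348 gene identifiers. All 10 passed the filter on low counts, which left 12338 tested genes. RNA was sequenced from liver tissue of mice aged 5 weeks, in 5 libraries of Stab1 knockout (KO) mice and 3 libraries of wild-type (WT) mice. Stabilin-1, the product of Stab1, takes up modified and extracellular ligands and is made by liver sinusoidal endothelium and by certain macrophages. The labels name no treatment, strain, sex or knockout allele and do not say whether animals were pooled.

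Long-chain fatty acids enter metabolism only after an acyl-CoA synthetase has joined them to coenzyme A. In liver, dietary linoleic and linolenic acid are turned into arachidonic and docosahexaenoic acid by alternating steps of desaturation, carried out by the products of Fads2 and Fads1, and elongation, carried out mainly by those of Elovl5 and Elovl2. Lpcat3 then places polyunsaturated chains into membrane phospholipids. Several of these genes are known targets of the sterol-regulated factors SREBP-1c and SREBP-2 and of the nuclear receptors LXR and PPAR-alpha.

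Acsl3 and Fads2 were the genes of this set whose levels in all KO libraries lay below those in all WT libraries. The 250 bases upstream of the RefSeq start of each are therefore shown, 5′ to 3′, from the RefSeq tables of build GRCm38.p6. The Acsl3 window is on the plus strand at chr1:78657575-78657824 and the Fads2 window on the minus strand at chr19:10101504-10101753. Capitals mark the GC box, spelled GGGCGG, wherever it lies on either strand, so that a box on the opposite strand reads CCGCCC. The other capitals mark the CCAAT box, searched for by those letters on both strands.
Acsl3 upstream window: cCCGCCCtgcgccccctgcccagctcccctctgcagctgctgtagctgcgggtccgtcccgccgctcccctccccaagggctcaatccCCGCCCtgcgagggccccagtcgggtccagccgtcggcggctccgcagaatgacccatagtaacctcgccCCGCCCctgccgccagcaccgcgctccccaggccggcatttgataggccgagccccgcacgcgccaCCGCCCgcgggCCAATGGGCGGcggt
Fads2 upstream window: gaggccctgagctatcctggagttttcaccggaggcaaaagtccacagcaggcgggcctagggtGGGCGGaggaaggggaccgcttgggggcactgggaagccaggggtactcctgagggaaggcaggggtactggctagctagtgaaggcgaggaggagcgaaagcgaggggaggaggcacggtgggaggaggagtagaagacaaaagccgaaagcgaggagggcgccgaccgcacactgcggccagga
The Acsl3 window held 5 GC boxes and 1 CCAAT box that directly adjoined the last of them, while the Fads2 window held 1 GC box and 0 CCAAT boxes. Of all 32817 RefSeq windows of that length, 32.7% held a GC box and 33.8% a CCAAT box. The sterol regulatory element core TCACNCCAC, present in 1.05% of all windows, was found in neither, nor were the E-box CACGTG (6.02% of windows) and the nuclear receptor motif AGGTCA (14%). Windows of 9 of the 10 genes were in the table, 12 windows in all. The sterol element core occurred in 1 of these, a second start of Acsl1, where it began 76 bases upstream. A GC box occurred in windows of 7 of the 9 genes. Like Acsl3, Elovl1, Elovl2 and Lpcat3 each had a window with 5.

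Libraries held about 4850000 to 10800000 counted reads. Stab1 had 5 to 16 reads in the KO libraries and 474 to 594 in the WT libraries. KO library 1 was the shallowest and the only one with Y-linked reads in number (320 of Ddx3y, against 0 to 4 elsewhere) and nearly no Xist reads (3, against 4445 to 8222), so by these reads it came from a male and the other 7 libraries from females, while the labels give no sex. Fits and levels of the 10 genes that it moved are given with and without it. Of 12338 tested genes, 28 (0.227%) were called at an adjusted p below 0.05 by the edgeR quasi-likelihood test, 9 higher and 19 lower in KO liver. Levels are given as CPM (read counts scaled to a common library size after TMM normalization), as mean ± SD with n = 5 KO and n = 3 WT libraries.

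Of the 10 genes, 1 was called, Acsl3, which was lower in KO liver (0.154% of all tested genes were called in that direction). All 10 log2 fold changes were negative, with a median of -0.33, against a median of -0.01 and 50.9% negative over all tested genes. The spread within the set was wide: Acsl3 and Fads2 stood at the low end, Fads1, Acsl5, Elovl1 and Lpcat3 between -0.43 and -0.32, Elovl5 and Acsl4 at -0.20 and -0.14, and Acsl1 and Elovl2 at -0.04. Without KO library 1, 9 of 10 were negative, with a median of -0.36, against 6476 of 12283 tested genes and a median of -0.02. An unadjusted p below 0.05 was found for 3 of 10 genes, all lower in KO liver (Acsl3, Fads2 and Fads1), against 13.6% of all tested genes in either direction and 5.9% in that one. In 2 of 10 genes all KO libraries lay below all WT libraries, a pattern that 3.61% of all tested genes showed.

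**Figure D1:**
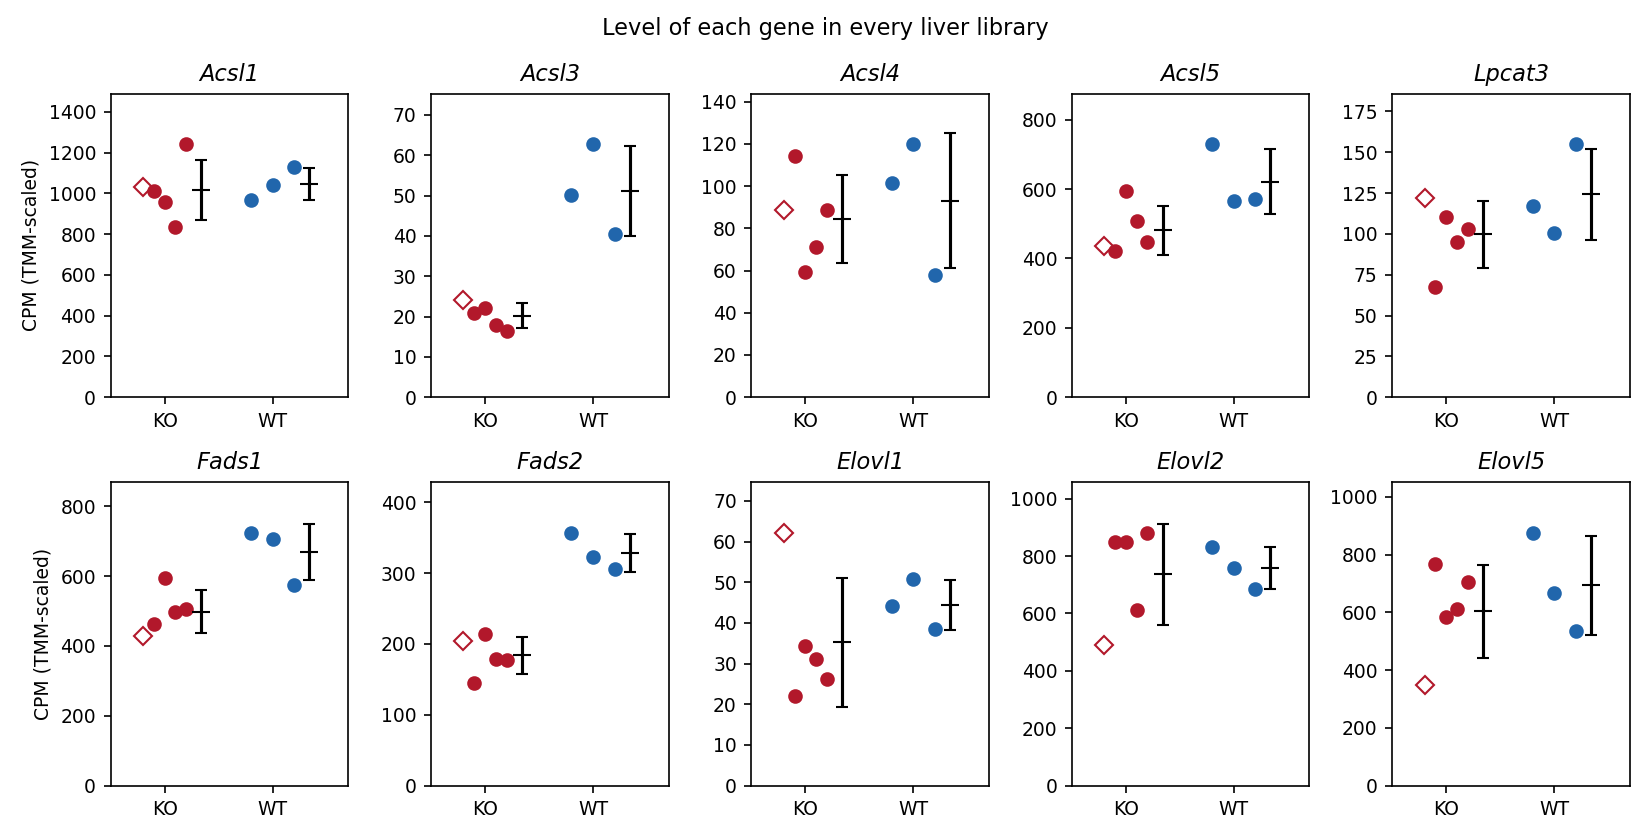
CPM of the 10 genes in every library, KO (red, left) and WT (blue, right), with the group mean ± SD as black bars; the open diamond is KO library 1. Acsl3 and Fads2 separate the groups completely, while the other 8 genes overlap.

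Acsl3 encodes an acyl-CoA synthetase of the endoplasmic reticulum and lipid droplets. Its level was 24.1, 20.8, 22.1, 17.9 and 16.4 CPM in KO libraries 1 to 5, against 50.2, 62.8 and 40.4 CPM in WT libraries 1 to 3. The groups did not overlap, and KO library 1 was the highest of the KO libraries. The means were 20.3 ± 3.11 CPM in KO and 51.1 ± 11.2 CPM in WT liver, a KO level 0.395 times that of WT (log2 fold change -1.34, SE 0.18, edgeR adjusted p = 0.0120). By unadjusted p it ranked 17 among all tested genes. Without KO library 1 the log2 fold change was -1.41 (SE 0.18, edgeR adjusted p = 0.00701). The call was lost without KO library 4 (adjusted p = 0.0523), WT library 1 (0.0744) or WT library 2 (0.0734), while the log2 fold change ran from -1.48 to -1.17 over the 8 fits that left out 1 library.

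Reads covered 58.8% to 71.5% of the 3950 bases of Acsl3 in KO libraries and 75.1% to 79.4% in WT libraries. Utp14b, a ribosome biogenesis gene that overlaps Acsl3 on the same strand in the RefSeq annotation, held 18, 21, 17, 24 and 10 reads in KO libraries, against 94, 120 and 35 in WT libraries, and was not called (log2 fold change -1.85, SE 0.40, edgeR adjusted p = 0.187). The division of reads between these overlapping genes is uncertain. In gene order on chromosome 1, the 5 tested genes on each side of Acsl3, Utp14b included, were also examined. Of these 10, 0 were called, and the log2 fold changes of the 9 other than Utp14b ran from -0.75 to 0.49.

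The other acyl-CoA synthetases were not called. Acsl1, the most abundant form in liver, had 1032, 1010, 955, 835 and 1241 CPM in KO libraries and 969, 1039 and 1128 CPM in WT libraries, so the WT values fell inside the KO range (log2 fold change -0.04, SE 0.16). Acsl5, found on mitochondria and endoplasmic reticulum, had 436, 422, 593, 507 and 447 CPM in KO libraries, against 730, 565 and 570 CPM in WT libraries. Only KO library 3 reached the WT range (log2 fold change -0.37, SE 0.17, edgeR adjusted p = 0.366). Acsl4, which prefers arachidonic acid and lies on the X chromosome, had 59.2 to 114 CPM in KO and 57.7 to 120 CPM in WT libraries, with WT library 3 the lowest of all 8 (log2 fold change -0.14, SE 0.26).

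Because these synthetases share a substrate class, their proportions were compared per length, as shares of the summed deposited RPKM (reads scaled for gene length and library total) of the Acsl genes in each library. Acsl3 made up 1.43%, 1.26%, 1.24%, 1.15% and 0.862% in KO libraries, against 2.49%, 3.28% and 2.08% in WT libraries. These shares did not overlap between genotypes. Acsl1 made up 59.9% ± 5.14 in KO and 54.3% ± 5.21 in WT libraries, and Acsl5 35.2% ± 5.63 in KO and 39.5% ± 4.78 in WT libraries (SD, n = 5 and 3), so the groups overlapped for both. Acsl6 had 1 read in the KO libraries together and 0 in the WT libraries.

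Fads2 encodes the desaturase that starts polyunsaturated fatty acid synthesis. Its level was 204, 145, 214, 179 and 177 CPM in KO libraries, against 357, 323 and 305 CPM in WT libraries. The highest KO library, number 3, lay well below the lowest WT library. The means were 184 ± 26.8 CPM in KO and 328 ± 26.5 CPM in WT liver, a KO level 0.560 times that of WT, but Fads2 was not called (log2 fold change -0.84, SE 0.16, edgeR adjusted p = 0.102). It was called without KO library 1 (log2 fold change -0.88, SE 0.16, edgeR adjusted p = 0.0329), a fit that called 0.928% of 12283 genes (0.513% lower in KO) and 2 of the 10, and by the DESeq2 Wald test on all libraries (adjusted p = 8.93e-05), which called 1.11% of genes (0.569% lower in KO) and again 2 of the 10.

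Fads1, the desaturase that acts later in the same route, lies beside Fads2 on chromosome 19. It had 429, 463, 594, 497 and 504 CPM in KO libraries, against 724, 706 and 575 CPM in WT libraries. The groups met, since KO library 3 exceeded WT library 3 (log2 fold change -0.43, SE 0.16, edgeR adjusted p = 0.333). The ratio of Fads2 to Fads1 by RPKM was 1.10 in KO library 1 and 0.722, 0.829, 0.831 and 0.808 in KO libraries 2 to 5, against 1.14, 1.05 and 1.22 in WT libraries. KO library 1 thus lay inside the WT range, and the other KO libraries lay below it. Fads3, the neighbouring desaturase homologue, had 7.77 ± 1.47 CPM in KO and 11.2 ± 1.67 CPM in WT libraries, and the groups did not overlap (log2 fold change -0.53, SE 0.20, edgeR adjusted p = 0.333).

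**Figure D2:**
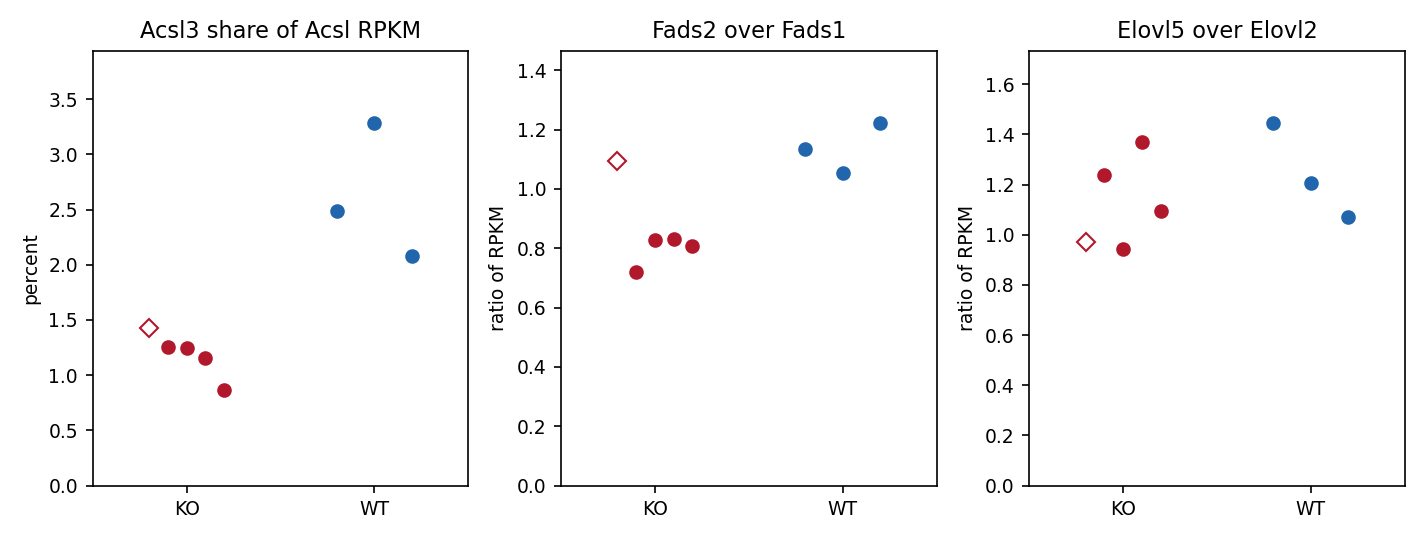
Acsl3 as percent of summed Acsl RPKM (left), Fads2 over Fads1 (middle) and Elovl5 over Elovl2 (right) in every library, KO (red) left of WT (blue); the open diamond is KO library 1. The Acsl3 share is at most 1.43% in KO and at least 2.08% in WT libraries, and the elongase ratio overlaps between groups.

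The elongases of the polyunsaturated route were not called. Elovl2, which extends the longest chains, had 489, 849, 847, 612 and 882 CPM in KO libraries and 831, 758 and 686 CPM in WT libraries (log2 fold change -0.04, SE 0.21). Elovl5, which acts between the desaturase steps, had 347, 769, 584, 612 and 706 CPM in KO libraries and 876, 668 and 536 CPM in WT libraries (log2 fold change -0.20, SE 0.25). KO library 1 was the lowest library for both genes, and without it the log2 fold changes were 0.07 (SE 0.16) for Elovl2 and -0.06 (SE 0.19) for Elovl5. The Elovl5 to Elovl2 ratio by RPKM was 1.12 ± 0.180 in KO and 1.24 ± 0.190 in WT libraries (SD, n = 5 and 3).

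Elovl1, which elongates saturated and monounsaturated very long chains, moved most of the 10 genes when KO library 1 was left out. It had 62.2 CPM in that library, above all WT libraries, and 22.1, 34.4, 31.2 and 26.2 CPM in KO libraries 2 to 5, against 44.1, 50.7 and 38.6 CPM in WT libraries. Its log2 fold change was -0.35 (SE 0.29, edgeR adjusted p = 0.584) with all libraries and -0.65 (SE 0.18, edgeR adjusted p = 0.0811) without KO library 1. KO libraries 2 to 5 lay below all WT libraries for Elovl1, Acsl3 and Fads2, 3 of the 10 genes, as they did for 8.82% of all tested genes. DESeq2 without KO library 1 called these 3 genes, all lower in KO (Elovl1 adjusted p = 0.0266), but also 8.83% of all tested genes in either direction and 3.26% in that one. With coverage evenness of the library (how fully genes of like read density are covered) as a covariate in edgeR, the log2 fold change of Elovl1 over all libraries was -0.04 (adjusted p = 0.981). With that covariate and without KO library 1 it was -0.35 (edgeR adjusted p = 0.657). The cell cycle gene Cdc20 overlaps Elovl1 on the opposite strand and held 97 reads in KO and 348 in WT libraries together; whether counting used strand is not given.

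Lpcat3, the acyltransferase, had 122, 67.8, 110, 95.0 and 103 CPM in KO libraries and 117, 101 and 155 CPM in WT libraries. The groups overlapped, and WT library 3 was the highest of all 8 (log2 fold change -0.32, SE 0.21, edgeR adjusted p = 0.477). Without KO library 1 the log2 fold change was -0.41 (SE 0.20, edgeR adjusted p = 0.232). Lpcat3 overlaps Emg1, which lies on the opposite strand.

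**Figure D3:**
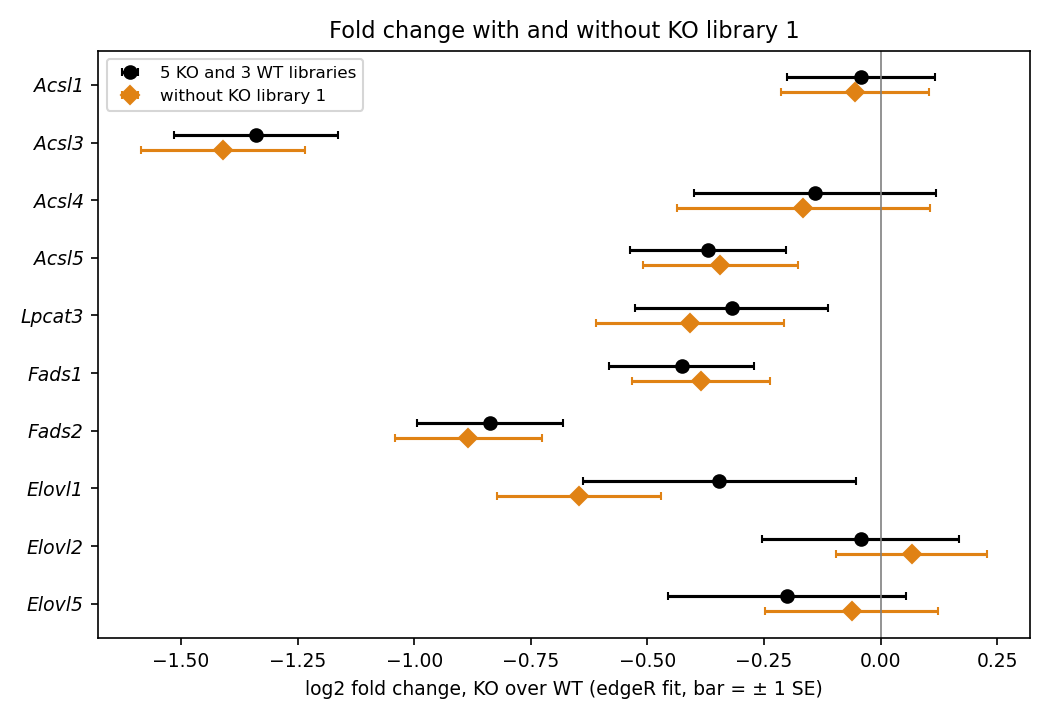
Fitted log2 fold change of KO over WT with ± 1 SE for each gene, with all 8 libraries (black) and without KO library 1 (orange). Acsl3 and Fads2 lie farthest from 0 in both fits, and Elovl1 moves from -0.35 to -0.65.

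By RPKM the 10 genes fell into an abundant set of 6 and a lower set of 4. In KO liver the order was Acsl1 (261 ± 35.4 RPKM), Elovl5 (214 ± 51.5), Elovl2 (191 ± 41.1), Acsl5 (152 ± 23.7), Fads1 (143 ± 17.5), Fads2 (122 ± 21.0), Lpcat3 (40.1 ± 9.29), Elovl1 (20.1 ± 9.83), Acsl4 (16.0 ± 3.73) and Acsl3 (5.15 ± 0.938). In WT liver Fads2 stood at rank 3, with 217 ± 17.9 RPKM, after Acsl1 (267 ± 19.2) and Elovl5 (246 ± 61.4) and before Elovl2 (197 ± 19.5), Acsl5 (195 ± 29.0) and Fads1 (192 ± 24.6). The WT order then ran through Lpcat3 (49.3 ± 10.6), Elovl1 (24.9 ± 3.65), Acsl4 (17.6 ± 6.18) and Acsl3 (12.9 ± 2.96). Ranges of neighbours within the abundant set overlapped in both genotypes. Between Fads2 and Lpcat3 in KO liver, Fads1 and Lpcat3 in WT liver, Lpcat3 and Elovl1 in WT liver, and Acsl4 and Acsl3 in KO liver they did not.

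**Figure D4:**
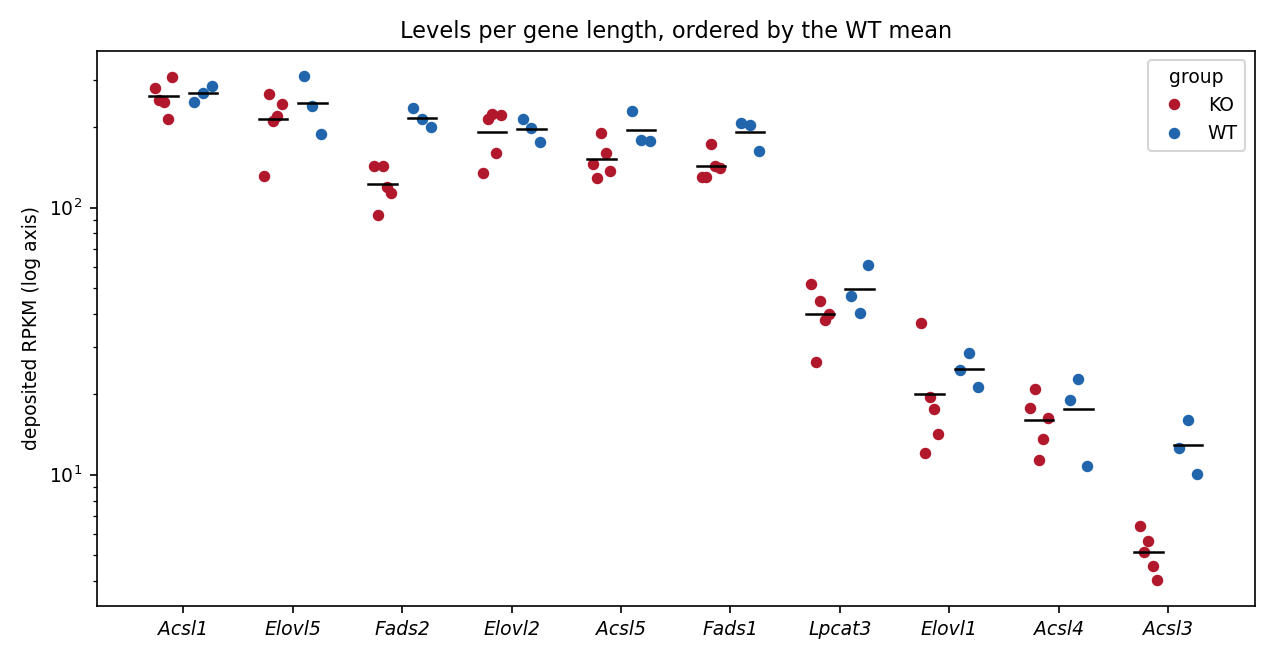
Deposited RPKM on a log axis for each gene in KO (red, left) and WT (blue, right) libraries, ordered by the WT mean; black bars are group means. Fads2 has rank 6 in KO and rank 3 in WT liver, and Acsl3 is lowest in both.

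The wider pathway was followed through lists of 84 genes, of which 83 were in the table and 74 were tested. Apart from the 10 genes, 64 were tested, of which 0 were called by edgeR in either direction and 46 had negative log2 fold changes. Over all tested genes 0.227% were called and 50.9% were negative. Over all 74, 12 had an unadjusted p below 0.05, against 13.6% of all tested genes. DESeq2 called 2 of the 74, Acsl3 and Fads2, against 1.11% of all genes it tested. Without KO library 1 edgeR called 3 of 74, all lower in KO (Acsl3, Fads2 and Elovl3), against 0.513% of 12283 tested genes in that direction. In that fit 54 of the 74 were negative, against 6476 of 12283. The median over the 74 was -0.18, against -0.02 over all genes of that fit and -0.15 with all libraries. Desaturases had a median of -0.43 over 7 tested genes, with Degs1, the sphingolipid desaturase, at 100 ± 13.1 CPM in KO and 77.6 ± 12.9 CPM in WT liver. The elongation cycle had a median of -0.12 over 12, with Elovl6, the elongase of palmitate, at 98.3 ± 15.4 CPM in KO and 173 ± 113 CPM in WT liver and the dehydratase gene Hacd3 at 178 ± 8.94 CPM in KO and 221 ± 60.8 CPM in WT liver. WT library 3 had 61.1 CPM of Elovl6, below all KO libraries. Hacd3 was at 178 CPM in WT library 1, inside the KO range, and at 291 CPM in WT library 3.

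Acyl-CoA synthetases had a median of -0.15 over 17 tested genes, 15 of them negative, with the acetyl- and propionyl-CoA synthetase genes Acss2 and Acss3 at log2 fold changes of -0.57 (SE 0.37) and -0.95 (SE 0.34). Acss2 was at 680, 395 and 147 CPM in WT libraries 1 to 3, and the last of these lay below all KO libraries. Acyltransferases had a median of -0.09 over 15, with the mitochondrial glycerol-phosphate acyltransferase gene Gpam at 87.0 ± 41.6 CPM in KO and 189 ± 93.0 CPM in WT liver (log2 fold change -1.12, and -1.44 without KO library 1) and Lpgat1 at 180 ± 12.4 CPM in KO and 214 ± 12.1 CPM in WT liver. Peroxisomal chain shortening had a median of -0.12 over 10. Within it Scp2, the sterol carrier and thiolase gene, was at 3820 ± 795 CPM in KO and 2669 ± 210 CPM in WT liver (log2 fold change 0.52, and 0.39 without KO library 1), and Abcd3, a peroxisomal membrane transporter, at 523 ± 40.7 CPM in KO and 693 ± 122 CPM in WT liver. Transcriptional regulators had a median of -0.22 over 13, with Insig1, the sterol-sensing retention protein, at 387 ± 92.5 CPM in KO and 767 ± 357 CPM in WT liver (log2 fold change -0.99, and -1.13 without KO library 1) and Srebf2, which encodes SREBP-2, at 66.0 ± 12.4 CPM in KO and 98.8 ± 23.9 CPM in WT liver. In WT library 3, Insig1 was at 383 CPM and Gpam at 88.0 CPM, both inside the KO range. Log2 fold changes were negative in 8 of 13 regulators, 6 of 10 peroxisomal genes and 10 of 15 acyltransferases. They were negative in 6 of 7 desaturases and 11 of 12 elongation cycle genes, against 50.9% of all tested genes.

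**Figure D5:**
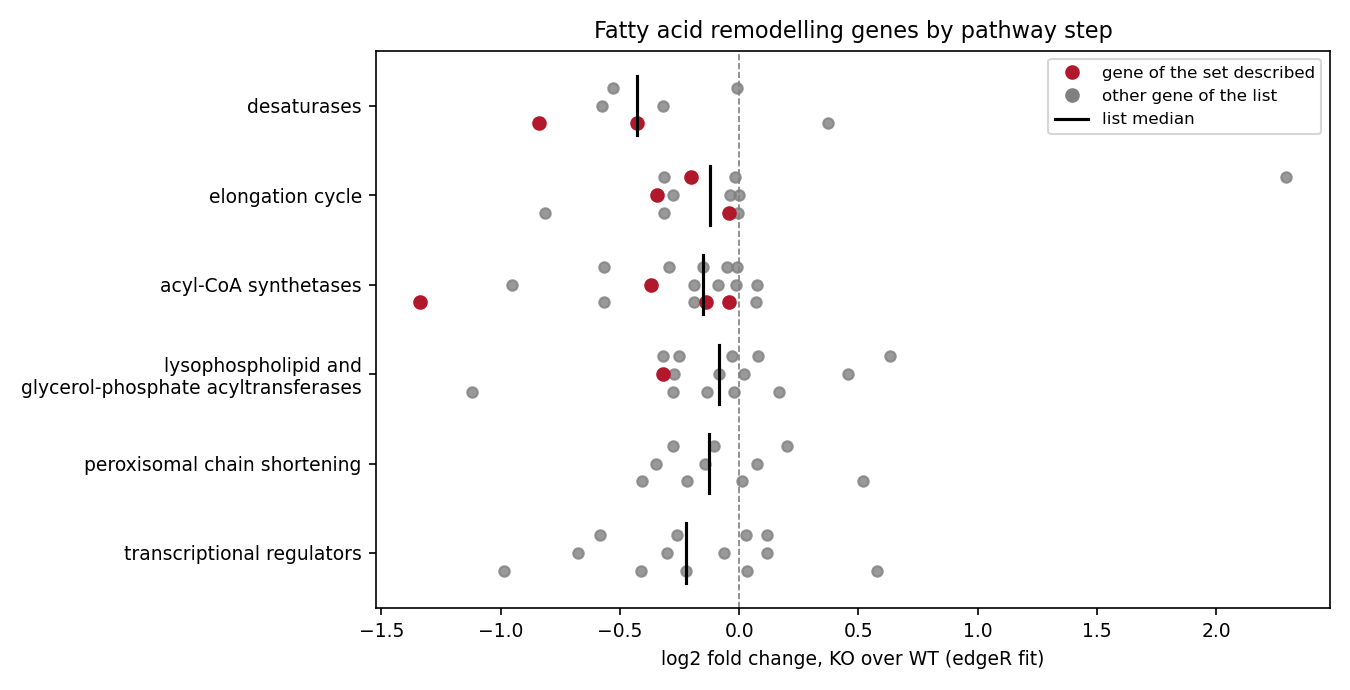
Fitted log2 fold change of KO over WT for each tested gene of 6 pathway lists; red points are the 10 genes, grey points the other list genes, black bars list medians. The list medians lie between -0.43 and -0.09, and the grey point at 2.29 is Elovl3.

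Markers of liver cell types were summed to describe the libraries. The sum of 8 hepatocyte markers was 70976 to 131187 CPM in KO and 146479 to 154604 CPM in WT libraries, and 113118 to 131187 CPM in KO libraries 2 to 5. Most of it was albumin (Alb, log2 fold change -0.50, SE 0.23, not called). Without Alb the sum was 24457 to 29762 CPM in KO and 24241 to 28490 CPM in WT libraries, so the groups overlapped, and 5 of the 8 markers had negative and 3 positive log2 fold changes, among them Apoa1 at 0.32 (SE 0.19). The sum of 8 sinusoidal endothelial markers, all 8 with negative log2 fold changes, was 224 to 268 CPM in KO and 286 to 370 CPM in WT libraries. Without Clec4g, the most abundant of them, it was 159 to 218 CPM in KO and 202 to 300 CPM in WT libraries, which overlapped through KO library 1. The sum of 8 erythroid markers was 76.9 to 196 CPM in KO and 69.6 to 75.0 CPM in WT libraries, and up to 188 CPM in KO libraries 2 to 5. Without Alas2, the most abundant of them, it was 42.4 to 156 CPM in KO and 40.5 to 55.9 CPM in WT libraries. The groups then overlapped, also without KO library 1 (54.5 to 156 CPM in KO). All 8 hepatic stellate cell markers had negative log2 fold changes. Their sum was 265 to 388 CPM in KO and 376 to 396 CPM in WT libraries. Without Dcn it was 145 to 161 CPM in KO and 183 to 201 CPM in WT libraries. The Kupffer cell sum, with 6 of 8 markers positive, was 483 to 696 CPM in KO and 408 to 563 CPM in WT libraries. The cholangiocyte sum, with 4 of 5 tested markers positive, was 56.7 to 132 CPM in KO and 53.9 to 65.1 CPM in WT libraries. It was 79.9 to 132 CPM in KO libraries 2 to 5, above all WT libraries. Without Spp1, the most abundant of them, KO libraries 2 to 5 (10.2 to 18.8 CPM) overlapped WT libraries (7.91 to 13.7 CPM). Neutrophil sums, with all 4 tested markers positive, overlapped only narrowly, reaching 16.8 CPM in KO and 10.1 CPM in WT libraries. Adipose sums overlapped between groups. The pancreas sum, mostly Cela1, was 37.2 to 83.9 CPM in KO and 23.8 to 32.4 CPM in WT libraries. None of the tested markers in these lists was called by edgeR. In bulk tissue, fewer cells of a type and less RNA per cell cannot be told apart. The part of these marker levels in the levels of Acsl3 and Fads2 was not tested. Evenness of read coverage, the mean excess of coverage percent over that of genes of like read density, ran from -1.79 to 1.37 percentage points in KO and from -0.618 to 1.65 in WT libraries. KO library 1 had the highest KO value, and KO libraries 2 to 5 ran from -1.79 to 0.362. WT libraries 1 to 3 were at 1.65, 1.40 and -0.618, so without KO library 1 only WT library 3 lay inside the KO range. With evenness as a covariate over all libraries, Acsl3 had a log2 fold change of -1.16 (edgeR adjusted p = 0.0263) and Fads2 one of -0.70 (0.123). A fit chosen after seeing the data left out KO library 1 as well. It gave -1.16 (edgeR adjusted p = 0.0781) for Acsl3 and -0.65 (0.216) for Fads2.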

How the data were processed

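Liver RNA of 5 KO and 3 WT libraries was sequenced after column isolation and standard Illumina library preparation at BGI, per the labels' protocols. For the aligner, counter, genome build, annotation and strandedness, the sources used here name nothing. Per the file headers, the authors deposited per library and gene a uniquely mapped read count, the coverage percent of each gene's length and an RPKM value. The deposited RPKM values of the 10 genes equalled counts divided by length and library total, and were used only to compare levels between genes. A dash was read as 0. Reads on rows sharing an identifier were summed (113 identifiers).

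Counts were tested in R 4.3.3 with edgeR 4.0.16: filterByExpr defaults, TMM scaling, a quasi-likelihood F test of KO against WT with no covariate, and Benjamini-Hochberg adjustment over all 12338 tested genes, called below 0.05. The SE is the size of the log2 fold change divided by the square root of F. The biological coefficient of variation was 24.8%. A floor of 3 reads corresponds to 0.276 to 0.587 CPM. Alternatives were the removal of single libraries, a block for replicate number, DESeq2 1.42.0 and its size factors, no filter, a coverage covariate, removal of the gene length trend and limma-trend (limma 3.58.1, prior count 2). Plots were drawn with matplotlib 3.10.9.

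The 10 genes, lists and tests were chosen with earlier results of these data known. Named are the 10 genes, Stab1, and in each list called genes or, where none besides the 10 was called, the 2 other genes with the smallest p, and the 3 genes closest in pattern to Fads1, Fads2, Elovl5 and Acsl1; overlapping or neighbouring genes and Elovl3 were added. RefSeq tables were used for names, gene order and upstream windows. The labels do not state that each library is a different animal; p-values therefore rest on library-to-library spread alone, possibly technical. Each of the 13 pairs of libraries within a group differed by more than sampling noise.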

Additional observations from a re-analysis of the deposited data

How the results depend on the processing

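Numbers of called genes depended on single libraries and on the tool. Over fits that left out 1 library, between 13 and 114 genes, between 0 and 2 of the 10 genes and between 0 and 3 list genes were called (with all libraries 28, 1 and 1). The number of genes called was 114 without KO library 1 and 93 without WT library 3. DESeq2 called 137 genes, 2 of the 10 and 2 list genes; a version without KO library 1, added after seeing the data, called 1083 (8.83% of tested genes), 3 of the 10 (Acsl3, Fads2 and Elovl1, adjusted p = 0.0266) and 8 list genes. Acsl3 passed the threshold in 5 of 8 fits that left out 1 library and in 7 of 9 other settings, and its log2 fold change lay between -1.48 and -1.16 in all 17. A fit with the coverage covariate and without KO library 1 was also chosen after seeing the data. It called 24 of 12283 tested genes, 0 of the 10 and 0 list genes (Acsl3 edgeR adjusted p = 0.0781). Fads2 ran from -0.96 to -0.65 and passed in 1 of 8 and 2 of 9.

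Signs turned in 4 genes that were never called. Over fits that left out 1 library, log2 fold changes ran from -0.12 to 0.067 for Elovl2, from -0.36 to 0.0060 for Elovl5, from -0.12 to 0.021 for Acsl1 and from -0.39 to 0.074 for Acsl4. With the gene length trend removed, Elovl2 was at 0.049 and Acsl1 at 0.038. Without KO library 1, Elovl2 was at 0.075 by DESeq2 and 0.20 with the coverage covariate, where Elovl5 was at 0.077. The causes were not tested.

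With the replicate number as a block, 8 genes, 0 of the 10 and 0 list genes were called (Acsl3 log2 fold change -1.17, adjusted p = 0.437). The labels name no pairing by number. Deviations from group means of same-numbered libraries correlated at 0.124, -0.148 and -0.150 over genes. No WT library correlated best with the KO library of its own number. With so few libraries these correlations cannot decide whether same-numbered libraries share a batch. Depth is low for Acsl3, with 123 to 234 reads in KO and 403 to 681 in WT libraries.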

Other observations

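Elovl3, which elongates saturated and monounsaturated chains and was chosen after its values were seen, differed between KO library 1 and the other KO libraries. It was at 181 CPM in KO library 1 and at 2.56, 2.26, 2.22 and 1.73 CPM in KO libraries 2 to 5, against 6.70, 10.8 and 4.91 CPM in WT libraries. With all libraries its log2 fold change was 2.29 (SE 1.60, edgeR adjusted p = 0.503). Without KO library 1, the library with Y-linked reads, it was -1.77 (edgeR adjusted p = 0.0261), and all 4 remaining KO libraries lay below all WT libraries. Its expression is known to differ between the sexes in mouse liver.

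Genes with the most similar pattern were taken as those with the smallest root mean square difference of centred log2 CPM over the 8 libraries. For Fads2 they were Fam219a (0.105), Gpr124 (0.120) and Ncstn (0.138), for Fads1 Ets1 (0.0705), Zbtb39 (0.0706) and App (0.0770), for Elovl5 Epm2a (0.0573), Hacl1 (0.122) and Lipa (0.132), and for Acsl1 Alg14 (0.0613), Zfp956 (0.0688) and Zscan26 (0.0802). Within the set of 10, Fads1 and Acsl5 were each other's closest gene (0.118), as were Elovl2 and Elovl5 (0.207), and the closest gene to Acsl3 was Fads2 (0.323).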
